A study of Mus musculus with 8 samples.

Results

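Ribosome load per mRNA was compared between genes in normal epididymal white adipose tissue (eWAT), a visceral fat depot of the male mouse. The members were all 8562 genes of the deposited table, taken in the 4 control libraries of the 8 in the series. These came from 2 pools (replicates 1 and 2) of eWAT from 3 male mice each, aged 6 weeks, of the genotype HuR flox/flox without Cre, and are called Ctrl here. Every Ctrl animal therefore carried floxed alleles of HuR (gene Elavl1), an RNA-binding protein. The other genotype, HuR-FKO, also carried AdipoQ-Cre, a Cre transgene driven by the promoter of the adipocyte gene adiponectin, and its 2 pools are set beside Ctrl only at the end. Each pool was minced and divided, and 1 share gave total RNA for an mRNA library while the other was lysed and digested for a library of ribosome-protected fragments (RPF). The labels of the RPF libraries also carry a tag for a HuR antibody of immunoprecipitation, which the study's account of its ribosome profiling does not mention; whether such a step was applied could not be settled, and RPF values are read here as ribosome profiling.

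An RPF is the piece of mRNA that a ribosome shields from nuclease, so RPF reads of a gene count ribosomes on its coding sequence. Divided by the mRNA level, they give a measure of how densely a message is occupied. Known signals that set this density lie mostly in the 5′ leader: a tract of pyrimidines at the cap (the TOP motif) ties messages for ribosomal proteins to mTOR activity, an iron-responsive element (IRE) binds a repressor when iron is low, and a short upstream reading frame (uORF) takes up ribosomes before they reach the main start codon. White fat is made mainly of adipocytes, together with endothelial cells, fibroblasts, macrophages and the mesothelial sheet that covers the depot.

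The ribosome load of a gene is given as log2(RPF + 1) minus log2(mRNA + 1), both in RPKM (reads scaled to coding length and to the coding reads of the library), relative to the median gene, which was set to 0 in each pool. A load of 1 is a ratio about 2-fold that of the median gene, and a load of -1 one about 2-fold under it. Loads were tested with limma across all genes, and "above" and "below" denote genes on that side of the median gene at a Benjamini-Hochberg adjusted p under 0.05. Standard errors (SE) refer to this fit with 2 mRNA and 2 RPF libraries. For a gene taken alone, the smallest p that exact permutation of 2 against 2 libraries allows is 0.333, so the calls rest on the spread shared across genes.

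The sequences of leader elements in members of 3 lists are shown first, because the loads of these genes are compared below. Of the cytosolic ribosomal protein genes, 60 had a promoter in the RefSeq table (GRCm38.p6), and 14 of them (23.3%) had a C followed by at least 4 pyrimidines at the annotated start, against 191 of all 6332 genes with a promoter (3.02%). The 3 lowest loads and the highest load among these 14 are printed with Rps6, the target of S6 kinase, from 10 bases before the start to 20 after it. Capitals mark the pyrimidine run.
Rps18: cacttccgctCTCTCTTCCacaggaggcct
Rpl28: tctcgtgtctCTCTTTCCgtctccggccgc
Fau: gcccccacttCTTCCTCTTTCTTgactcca
Rps6: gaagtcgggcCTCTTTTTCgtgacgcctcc
Rpl38: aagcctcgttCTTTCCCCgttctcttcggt
These windows lie at chr17:33955646-33955675 (minus strand), chr7:4792955-4792984 (plus), chr19:6057937-6057966 (plus), chr4:86857348-86857377 (minus) and chr11:114668570-114668599 (plus).

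For the IRE, the search letters on the sense strand were CNNNNNCAGTGN, the bulged C and the loop, with any base but G at the last N. They occurred in the annotated leader (GENCODE M21, GRCm38) of 432 of 7975 genes (5.42%) and of 6 of the 7 genes listed as carrying a 5′ IRE. The loop is in capitals for 4 whose match lay in a single exon.
Ftl1: gtgtcttgcttcaaCAGTGTttgaacggaa
Fth1: gtttcctgcttcaaCAGTGCttgaacggaa
Epas1: cgtacaatcctcggCAGTGTcctgagactg
Slc40a1: tccaacttcagctaCAGTGTtagctaagtt
They lie in the 5′ UTR at chr7:45459780-45459809 (minus), chr19:9982730-9982759 (plus), chr17:86753766-86753795 (plus) and chr1:45925466-45925495 (minus).

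Short uORFs of at most 30 bases were found in the leaders of 6 listed genes, and 1 is shown for each of 4 that code for well-known regulators, with the start and stop codon in capitals.
Cebpa: ATGccgggagaactcTAA
Odc1: ATGacgacgtgctcggcgtataagTAG
Atf5: ATGatgcggaaggggcacggcTAG
Ppp1r15b: ATGgtggagcgatctcacacggccTAG
That of Cebpa (chr7:35119394-35119411, plus) ended 7 bases before the main start codon. The others lie at chr12:17544921-17544947 (plus), chr7:44815531-44815554 (minus) and chr1:133131468-133131494 (plus), all in the 5′ UTR of the GENCODE M21 model.

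The 2 Ctrl mRNA libraries held 5456731 and 8060054 coding reads and the 2 RPF libraries 1153205 and 723940, recovered from the RPKM values. The median gene had 245 and 365 mRNA reads but 36 and 23 RPF reads, and 25.4% and 43.4% of genes had fewer than 20 reads in an RPF library. Every listed gene had more than 1 RPKM in all 8 libraries, and no library gave a listed gene fewer than 4 reads where a coding length was matched. The table therefore limits how low a load can be listed: 85.5% of genes had enough mRNA to be listed at a load of -1, 33.0% at -3, and of genes with up to 10 RPKM of mRNA only 33.1% at -1. Very low loads could thus be seen for well expressed genes alone.

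Ribosome load differed widely between genes. It spanned 5.07-fold from the 10th to the 90th percentile of genes, against a median SE of 0.199 on the log2 scale. In all, 2268 genes were above (26.5%) and 2267 below (26.5%), together 4535 (53% of genes). All of these lay on the same side in both pools, but the calls were made from the same pools, so this is no separate check. Across genes the loads of the 2 pools correlated at Pearson r = 0.882 and Spearman rho = 0.865 over 8562 genes, and at r = 0.916 over the 4787 genes with at least 20 reads in each RPF library. Genes are not independent replicates, and the 4 libraries share their coding lengths. The mRNA library was made from whole tissue and the RPF library from a lysate freed of its fat layer and debris, out of separate shares of the tissue. Ribosomes per message, recovery of a cell type in the lysate and mRNA held in the nucleus therefore cannot be told apart, and fewer cells of a type cannot be told from less RNA per cell.

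**Figure D1:**
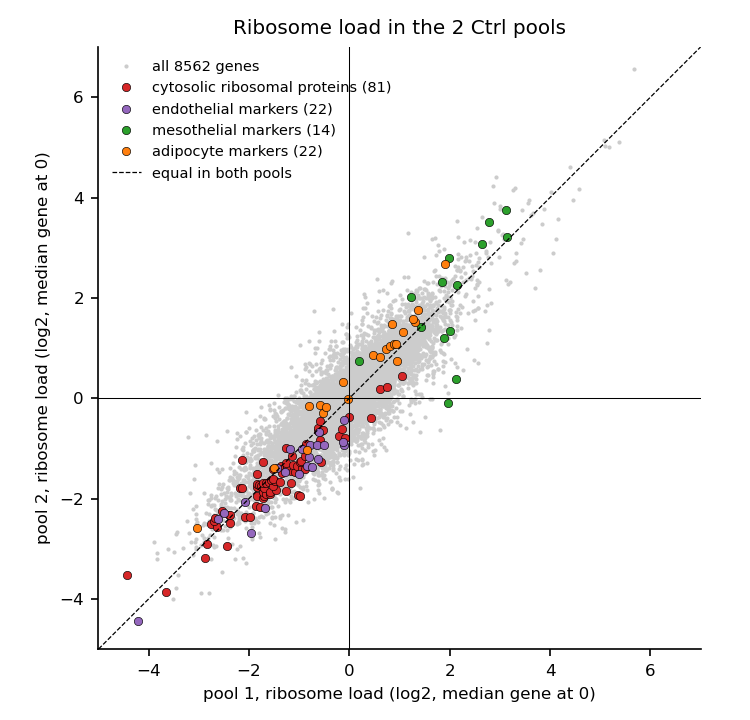
Ribosome load of each gene in pool 1 (horizontal axis) and pool 2 (vertical axis), both in log2 with the median gene at 0; gray points are all 8562 genes and colored points are the members of 4 lists, and the dashed line marks equal loads. Ribosomal proteins and endothelial markers lie mainly at lower left, mesothelial and adipocyte markers mainly at upper right, and r over all genes was 0.882.

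The messages of ribosomal proteins had low ribosome loads. Of 81 cytosolic ribosomal protein genes, 74 were below and 2 above, with a median load of -1.56 (0.34 of the ratio of the median gene; -1.51 in pool 1 and -1.66 in pool 2), against 26.5% of all genes below and a median over all genes of 0.01. These genes took 2.51% and 2.70% of the mRNA reads but 0.734% and 0.697% of the RPF reads. Both subunits were low, with 42 of 48 large subunit genes below (median -1.48) and 31 of 32 small subunit genes (median -1.66). The abundant Rpl41 had 3244 and 3347 RPKM of mRNA in pools 1 and 2 and 1126 and 1363 RPKM of RPF, a load of -1.13, and Rps29 had 1429 and 1541 against 796 and 699, a load of -0.71. RPF values were under mRNA values in both pools for these genes, as they were for the median gene before the shift (-0.26 and -0.30 in log2).

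The lowest and highest ribosomal proteins were both of the large subunit. Rpl29 had 396 and 419 RPKM of mRNA and 14.4 and 28.7 RPKM of RPF, from 8 and 10 RPF reads, a load of -3.98 ± 0.29 (SE; adjusted p = 0.0002). Rps2 followed with 536 and 547 against 34.5 and 29.8 RPKM, from 35 and 19 RPF reads (load -3.76). Rpl38, the opposite extreme, had 273 and 361 RPKM of mRNA and 470 and 397 of RPF (load 0.74), and it was at -0.03 once the trend with coding length and G+C content was removed. Most ribosomal protein genes have processed pseudogenes: a median of 97% of their coding 28-mers also occurred in another annotated transcript, and RPF reads are short. Among the 22 with at most 90% shared, 19 were below and none above, with a median of -1.54. Only 1 of the 81 had at most 10% shared (load -1.55), so the part of shared reads in these loads was not tested. Paralogs of 3 ribosomal proteins, picked after their values were seen, were not low: Rpl22l1 was at 0.49 beside -1.97 for Rpl22, Rps27l at 0.02 beside -1.48 for Rps27, and Rpl7l1 at 0.40 beside -1.32 for Rpl7.

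The printed pyrimidine starts belonged to messages at -1.80 (Rps18), -1.74 (Rpl28), -1.70 (Fau), -1.01 (Rps6) and 0.74 (Rpl38). Within ribosomal proteins, the 14 genes with such a start had a median load of -1.37 and the other 46 one of -1.63, so the match at the annotated start did not mark the lower loads. Start sites in an annotation can be bases away from those used in fat. Of 24 other TOP messages, many but not all for translation factors, 13 were below and 2 above (median -0.74, and -0.25 for those with at most 10% of their 28-mers shared). Eef1a1, which brings aminoacyl-tRNA to the ribosome, had 2349 and 2449 RPKM of mRNA and 963 and 819 of RPF (load -1.15). Eef2, the translocation factor, was at -1.56 and Tpt1 at -1.03. The poly(A)-binding proteins were lower still, Pabpc4 at -2.65 and Pabpc1 at -2.44 with 417 and 393 RPKM of mRNA against 55.4 and 66.5 of RPF. Eif2s3x, a subunit of the factor that delivers initiator tRNA, was above at 0.65.

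Other parts of the translation machinery were not low on balance. Of 26 initiation factors, 8 were above and 8 below, with a median of 0.16 that turned to -0.15 after removal of the trend with coding length and G+C content. The cap-binding protein Eif4e was highest at 1.44, and Eif4g2, an eIF4G relative that does not bind eIF4E, lowest at -1.85. Eif4ebp1, which sequesters eIF4E, was at -1.004 and Eif1, which checks start codon choice, at -0.77. Of 20 cytosolic aminoacyl-tRNA synthetases, 6 were above and 2 below (median 0.12). Mitochondrial ribosomal proteins lay near the middle, with 7 of 73 above, 21 below and 45 not past the threshold (median -0.20), from -1.44 for Mrps24 to 0.98 for Mrpl50.

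**Figure D2:**
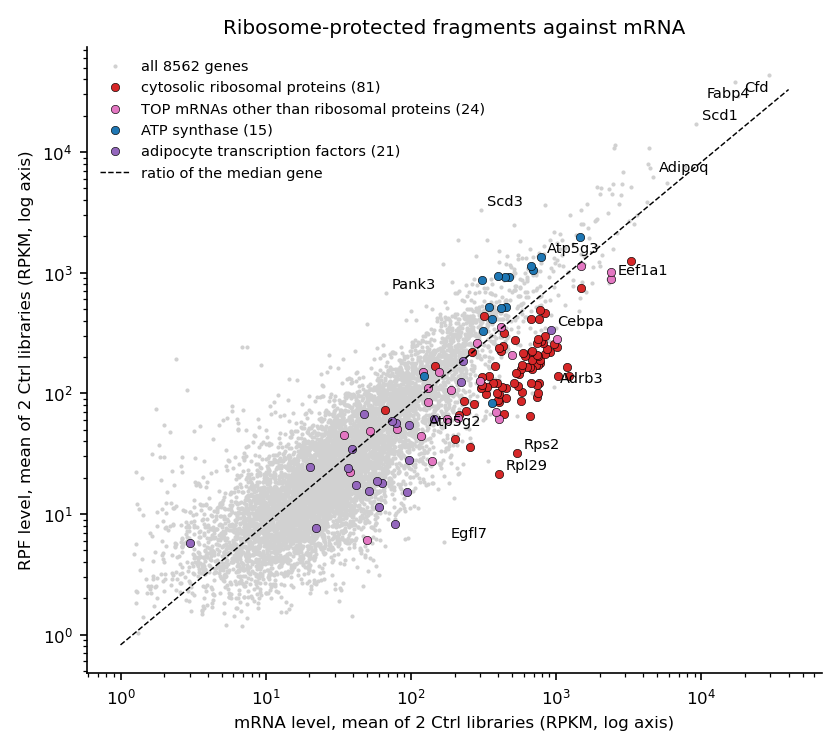
Mean RPF level against mean mRNA level of each gene in the 2 Ctrl pools, both in RPKM on log axes; gray points are all 8562 genes, colored points are members of 4 lists, and the dashed line is the ratio of the median gene. Ribosomal proteins, for example Rpl29 and Rps2, lie under the line, ATP synthase subunits mostly above it with Atp5g2 far under it, and Fabp4 has the highest level in both assays.

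Messages with an IRE in the leader did not form a single class. Of 7, 4 were above and 1 below (median 0.68). Ftl1, the ferritin light chain, had 2320 and 2315 RPKM of mRNA and 798 and 835 of RPF, a load of -1.22 ± 0.11 (SE; adjusted p = 0.00031). Fth1, the ferritin heavy chain, had 3336 and 3587 against 2671 and 2410 RPKM and did not pass the test (load -0.17, adjusted p = 0.27). Both printed elements hold the loop letters CAGTGN, and 89.3% of the coding 28-mers of Ftl1 and 26.1% of those of Fth1 occur elsewhere. Of the others, Slc40a1, the iron exporter ferroportin, had 15.1 and 13.7 RPKM of mRNA against 33.4 and 28.2 of RPF (load 1.33) and Sdhb was at 0.95, whereas Epas1, a transcription factor of the hypoxia response, was at -0.35 and did not pass. Alas2, the heme synthesis enzyme of red cell precursors, was at 1.37, and its RPF level differed between the pools (108 and 37.8 RPKM).

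uORF messages of the stress response were low as a group. Of 10 measured, 8 were below and none above, with a median of -1.11 (-1.32 in pool 1 and -0.83 in pool 2). After removal of the trend with coding length and G+C content the median was -0.80. The annotated leaders of 3 of the 10 held no AUG, and the part of uORFs in these loads was not tested. Ifrd1, whose uORF is known in human cells to hasten the decay of its message, had 109 and 103 RPKM of mRNA and 18.6 and 14.3 of RPF (load -2.35). Eprs, glutamyl-prolyl-tRNA synthetase, was the highest at 0.36 and did not pass. Of those printed, Ppp1r15b, a regulatory subunit of the phosphatase that acts on eIF2 alpha, was at -1.05 and the transcription factor Atf5 at -1.003. Ucp2, a mitochondrial carrier whose leader holds a known inhibitory uORF, had 240 and 266 RPKM of mRNA against 86.8 and 50.6 of RPF (load -1.63). Atf4, Ddit3 and Amd1 were not analysed here. Of 7 genes of polyamine synthesis and its antizymes, 4 were below and 1 above (median -0.61). Ornithine decarboxylase Odc1 had 75.2 and 95.5 RPKM of mRNA against 33.8 and 31.9 of RPF (load -1.06, with 84.4% of its 28-mers shared), and its inhibitor Oaz1, which is made by frameshifting, was at -1.33, whereas Oaz2 was at 0.81.

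**Figure D3:**
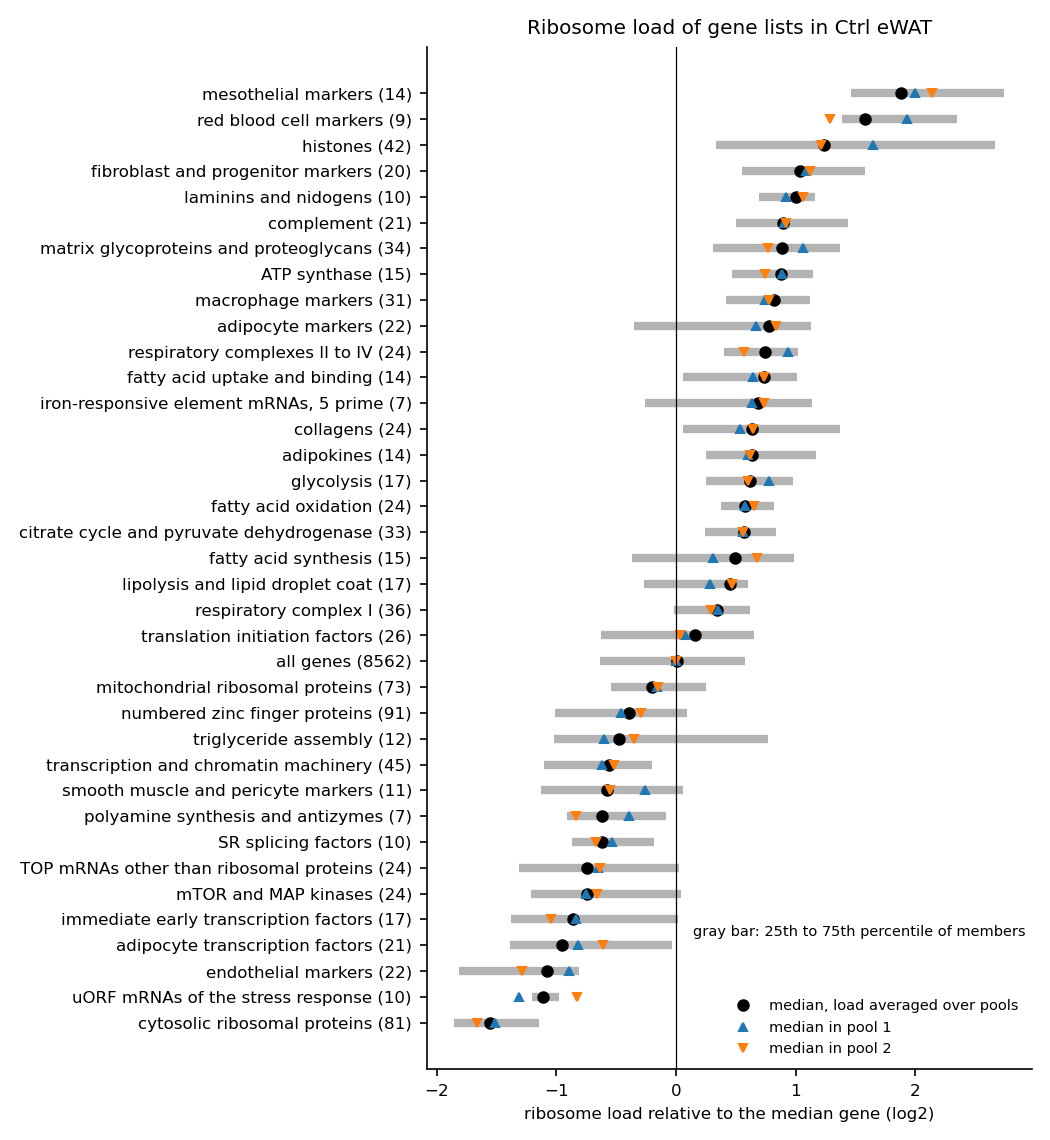
Ribosome load (log2, median gene at 0) of 36 gene lists and of all genes, sorted by median; black points are medians of the load averaged over pools, blue and orange triangles medians in pool 1 and pool 2, and gray bars the 25th to 75th percentile of members. Ribosomal proteins are lowest at -1.56 and mesothelial markers highest at 1.88.

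Markers of the cell types of the depot fell on both sides of the median gene. Mesothelial markers were the highest: 12 of 14 were above and none below, with a median load of 1.88. Msln (mesothelin; chr17:25748613-25754377) had 29.9 and 18.3 RPKM of mRNA and 161 and 131 of RPF, a load of 2.86 ± 0.24 (SE; adjusted p = 0.00026), and Upk3b had 81.5 and 35.6 against 271 and 206 RPKM (load 2.39). Both had less mRNA in pool 2 while every RPF value exceeded every mRNA value. The list took 0.0440% and 0.0303% of the mRNA reads and 0.160% and 0.121% of the RPF reads. Gpm6a was the highest at 3.44, Krt19 was at 2.20, Slpi at 1.63, and the transcription factor Wt1 at 0.47 did not pass.

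Endothelial markers were the lowest of the cell types, with 17 of 22 below and none above (median -1.08; -0.90 in pool 1 and -1.29 in pool 2). Pecam1, the junction protein CD31, had 125 and 223 RPKM of mRNA and 31.5 and 38.9 of RPF (load -1.94 ± 0.28, SE; adjusted p = 0.0014). Cdh5, VE-cadherin, had 188 and 322 against 99.1 and 137 RPKM (load -0.79), Cldn5, a tight junction protein, was at -0.99, and Kdr, the VEGF receptor, at -0.50 did not pass. The water channel Aqp1, the list's most abundant message, was at -0.27 and did not pass either. Endothelial mRNA was higher in pool 2 than in pool 1 (0.587% against 0.358% of reads), while the RPF share was 0.189% against 0.152%. Egfl7, a factor that endothelial cells secrete (chr2:26583880-26592682), had the lowest load of the whole list and of all genes that met the naming rule, with 137 and 202 RPKM of mRNA against 5.19 and 6.61 of RPF. That rests on 5 and 4 RPF reads, and the 95% interval from counting error alone ran from -5.46 to -3.40 around a load of -4.33.

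Adipocyte markers were above the median gene on balance, with 13 of 22 above, 4 below and a median of 0.78. They took 7.62% and 7.32% of mRNA reads and 11.1% and 11.8% of RPF reads. Fabp4, the fatty acid carrier (chr3:10204088-10208576; gene positions are GRCm38 transcripts of GENCODE M21), had 26435 and 32249 RPKM of mRNA and 42436 and 43706 of RPF, a load of 0.84 ± 0.15 (SE; adjusted p = 0.0034). Adipoq (adiponectin) had 4668 and 4587 against 5901 and 6606 RPKM, a load of 0.71. RPF values exceeded mRNA values in both pools for each. These directions did not hold under every scaling: after quantile normalization, which forces 1 distribution on all 4 libraries, the list's median was -0.17, Fabp4 was at -0.05 and Adipoq at -0.54.

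Within the adipocyte list the spread was wide. Acvr1c, the receptor ALK7, was highest at 2.28 and Lpl, lipoprotein lipase, had 4626 and 4181 RPKM of mRNA against 9953 and 11435 of RPF (load 1.56). The hormones Lep and Retn were at 1.42 and 1.20. The lipid droplet protein Plin1 at 0.10 and its partner Cidec at -0.36 did not pass, the latter with an adjusted p of 0.017 when the pool was a block. Adrb3, the beta3-adrenergic receptor (chr8:27225776-27229588), was the lowest, with 1026 and 903 RPKM of mRNA but 103 and 121 RPKM of RPF, from 143 and 105 reads (load -2.82 ± 0.14, SE; adjusted p = 8.6e-05). Its annotated leader held 13 AUG triplets, whose part in this load was not tested. RPF values were far under mRNA values in both pools.

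Fibroblast, macrophage and red blood cell markers were also above on balance. Of 20 fibroblast and progenitor markers, 15 were above and none below (median 1.03), from Cd34 at -0.17 (not past the threshold) to Fbn1, fibrillin, at 2.34 and Pdpn, podoplanin, at 2.76. Gsn, gelsolin, their most abundant message, had 8076 and 7437 RPKM of mRNA against 7974 and 7184 of RPF and did not pass (load 0.25). Macrophage markers had 19 of 31 above and 1 below (median 0.82). Lyz2 (lysozyme) was at 1.26, the mannose receptor Mrc1 at 1.48, Csf1r at 0.92 and Emr1, the F4/80 antigen, at 0.87. Cd68 at -0.26 and C1qa at 0.33 did not pass. The complement chain C1qc, the only one below, had 333 and 313 RPKM of mRNA against 187 and 161 of RPF (load -0.61). All 9 red blood cell markers were above (median 1.58). Hba-a1 had 2991 and 2108 RPKM of mRNA against 14622 and 8175 of RPF (load 2.40), with 94% of its 28-mers shared with the duplicate gene. Smooth muscle and pericyte markers had 2 of 11 above and 4 below (median -0.58; -0.26 in pool 1 and -0.55 in pool 2, and -0.29 after trend removal), with Acta2 at 1.14 and Rgs5 at -0.90. Of the skeletal muscle markers 2 of 18 were listed, and Ckm and Mylpf were not among them. T, B and NK cell markers and epididymis and testis markers had no listed member.

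**Figure D4:**
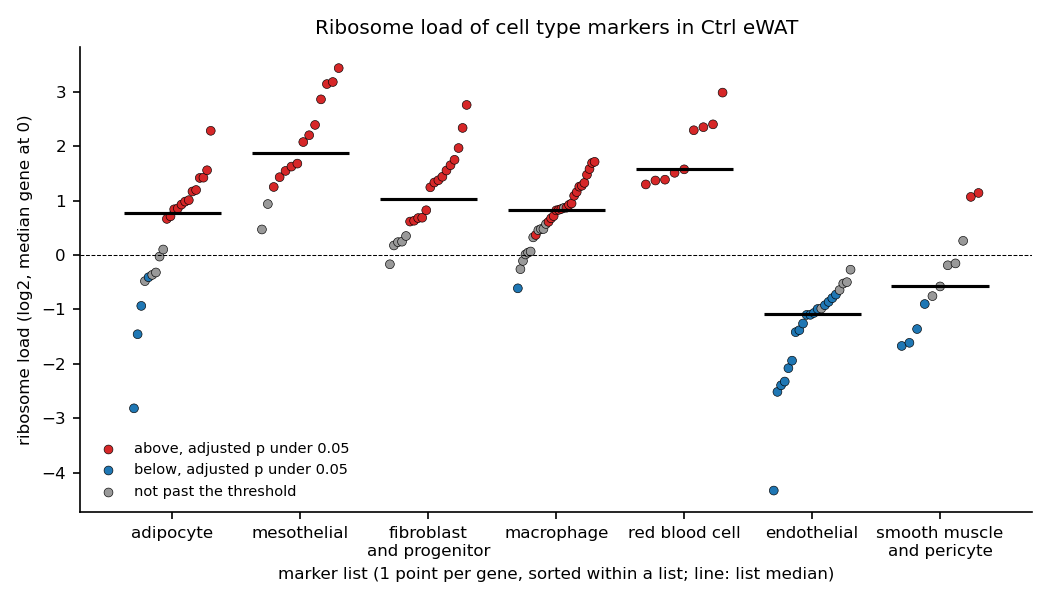
Ribosome load (log2, median gene at 0) of the markers of 7 cell types; each point is a gene, red above and blue below the median gene at an adjusted p under 0.05, gray not past the threshold, and lines are list medians. None of the 14 mesothelial markers is called below and none of the 22 endothelial markers above, and Adrb3 at -2.82 is the lowest adipocyte marker.

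Lists of lipid storage each held members on both sides of the median gene. Fatty acid uptake and binding had 9 of 14 members above and 2 below (median 0.73, and 0.0546 after quantile normalization), from Gpihbp1, the endothelial anchor of lipoprotein lipase, at -2.08 to Acsl4, an acyl-CoA synthetase, at 1.75. In fatty acid synthesis 7 of 15 were above and 4 below (median 0.49, and -0.0205 after quantile normalization). The stearoyl-CoA desaturases were high: Scd2 had 534 and 491 RPKM of mRNA against 2336 and 2646 of RPF (load 2.56), and Scd1 had 9791 and 8543 against 15139 and 19183 (load 1.18; -0.05 after quantile normalization). The elongase Elovl6 was at 2.69, acetyl-CoA carboxylase Acaca at 1.72, Thrsp at 0.80 and fatty acid synthase Fasn at 0.74. The transcription factors that drive these enzymes were low, Mlxipl (ChREBP) at -2.30 with 95.3 and 91.7 RPKM of mRNA against 11.7 and 18.6 of RPF, and Srebf1 at -0.56.

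Triglyceride assembly was split, with 5 of 12 above, 7 below and none in between (median -0.48). The above were the glycerol phosphate suppliers Pck1 (1446 and 1166 RPKM of mRNA against 1793 and 1652 of RPF; load 0.69) and Gpd1 (1.01), the acyltransferases Gpam (1.05) and Agpat9 (1.05) and the phosphatase Lpin1 (0.58). The below were Agpat1 (-1.16), the droplet protein Bscl2 (seipin; -1.14), Agpat2 (-1.09), Agpat6 (-1.002), Agpat3 (-0.78) and the acyltransferases of the last step, Dgat2 (2019 and 1975 against 1015 and 1270 RPKM; load -0.53) and Dgat1 (-0.42). On the side of lipid release, 7 of 17 members of lipolysis and the droplet coat were above and 2 below (median 0.45, and -0.06 after quantile normalization). Mgll, monoglyceride lipase, had 195 and 232 RPKM of mRNA against 675 and 722 of RPF (load 1.99), and Cav1, caveolin, was at 1.71. The below were Adrb3 and Pnpla2, the triglyceride lipase ATGL, at -0.41, which was looked up after the calls were seen. Insig1, the sterol sensor, had 136 and 131 RPKM of mRNA against 56.8 and 94.0 of RPF and did not pass (load -0.58, adjusted p = 0.078; 0.0073 with the pool as a block).

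Mitochondrial and glycolytic enzymes were above on balance. Counts above and below were 18 and none of 24 for fatty acid oxidation (median 0.58), 11 and none of 17 for glycolysis (0.62), 20 and 1 of 33 for the citrate cycle and pyruvate dehydrogenase (0.57), 18 and 3 of 24 for respiratory complexes II to IV (0.75) and 13 and 1 of 15 for ATP synthase (0.87). After quantile normalization these medians were, in the same order, 0.32, 0.44, 0.26, 0.36 and 0.36. The 7 glycolysis genes with at most 10% of their 28-mers shared had a median of 0.33. Complex I was nearer the middle, with 17 of 36 above and 1 below (median 0.34, 0.07 after trend removal and 0.0187 after quantile normalization). Cytosolic malate dehydrogenase Mdh1 had 640 and 691 RPKM of mRNA against 1619 and 1529 of RPF (load 1.52). The lactate carrier Slc16a1 was at 2.05, Ldha at 0.62, Aldoa at 0.50, Decr1 at 0.92 and Acadm at 0.59. Cox7a1 was at 2.22 but rests on 11 and 7 RPF reads, and Cox6a1 at -0.93 and Ndufa6 at -1.15 were the lowest of their complexes.

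The c-ring of ATP synthase offers a comparison of messages that encode the same mature peptide. Atp5g3 had 717 and 847 RPKM of mRNA and 1306 and 1372 of RPF, a load of 1.06 ± 0.13 (SE; adjusted p = 0.00081). Atp5g2 had 341 and 380 RPKM of mRNA and 74.9 and 91.0 of RPF, a load of -1.83 ± 0.15 (SE; adjusted p = 0.00026). Atp5g1 lay between them at 0.46 and did not pass (adjusted p = 0.051). All coding 28-mers of Atp5g1 and Atp5g2 occurred in another transcript and none of Atp5g3, and how reads were shared among copies was not tested.

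Secreted and matrix proteins were above on balance. Matrix glycoproteins and proteoglycans had 24 of 34 above and 4 below (median 0.89), laminins and nidogens 8 of 10 above and 1 below (1.00), complement 15 of 21 above and 1 below (0.90), and adipokines 8 of 14 above and 1 below (0.64, and 0.0797 after quantile normalization). Collagens had 15 of 24 above and 3 below, with a median of 0.64 that became 1.24 after trend removal. Sparc had 4313 and 4512 RPKM of mRNA against 7333 and 7433 of RPF (load 1.02; -0.05 after quantile normalization), Dcn (decorin) was at 1.55, and Fbn1 had 144 and 109 against 605 and 455 RPKM (load 2.34). Col3a1 was at 0.63, Lama2 at 2.01 and Col6a6 at 2.63. Exceptions were Lama5 at -1.32 and Ltbp3, a carrier of latent TGF-beta, at -0.71 (0.18 with the trend removed). Cfd (adipsin), the complement protease that adipocytes secrete, had 19773 and 15864 RPKM of mRNA against 30605 and 27125 of RPF (load 0.98; -0.18 after quantile normalization), and Apoe at 0.19 did not pass.

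In each of the 6 lists of regulators described here, more members were below than above. Other such lists varied. Insulin signalling was near balance with 7 of 29 above and 8 below, as were AU-rich element binding proteins with 4 of 16 and 5. Circadian clock genes had 1 of 14 above and 5 below, and hnRNP proteins went the other way with 6 of 18 above and 3 below. Of 21 adipocyte transcription factors, 13 were below and 2 above, with a median of -0.95 (-0.82 in pool 1, -0.61 in pool 2, and -0.42 after trend removal). Cebpa, whose printed uORF ends near its start codon, had 1037 and 817 RPKM of mRNA and 328 and 339 of RPF (load -1.18 ± 0.15, SE; adjusted p = 0.00084), and Cebpb was at -0.97. Pparg, the master regulator of fat cell formation, had 220 and 239 against 179 and 192 RPKM and did not pass (load -0.03). Nr1h2 (LXR beta) was the lowest at -2.83, from 11 and 9 RPF reads, and Ppara the highest at 1.03, from 9 and 6. Elavl1, the floxed gene, was above at 0.96 with 40.8 and 49.8 RPKM of mRNA against 64.6 and 81.8 of RPF.

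Immediate early transcription factors had 10 of 17 below and none above (median -0.86, and -0.31 with the trend removed). Jund was the lowest, with 254 and 259 RPKM of mRNA against 37.2 and 48.5 of RPF (load -2.28). Of 24 mTOR and MAP kinases, 14 were below and 5 above (median -0.74, and -0.36 with the trend removed). Mapk3 (ERK1) had 156 and 189 against 37.97 and 41.1 RPKM (load -1.81), Map2k2 (MEK2) was at -1.14, and Map3k2 stood apart at 2.79 on little mRNA (1.48 and 1.13 RPKM). Transcription and chromatin machinery had 23 of 45 below and 3 above (median -0.56), from the histone methyltransferase Kmt2b at -2.38 to the polymerase subunit Polr2g at 1.04. SR splicing factors had 6 of 10 below and 1 above (median -0.62), with Srsf2 at -1.80, and numbered zinc finger proteins 33 of 91 below and 10 above (median -0.39), from Zfp219 at -2.94 to Zfp871 at 3.63.

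Histone genes were above on balance, with 27 of 42 above and 4 below (median 1.24), but the 15 with at least 20 reads in each RPF library had a median of 0.0843. Their replication-dependent messages lack a poly(A) tail and much of their coding sequence is shared (median 82% of 28-mers); the part of either in these values was not tested. Hist1h4c had 2.95 and 2.79 RPKM of mRNA against 117 and 97.7 of RPF (load 5.08), while the polyadenylated variants H3f3a at -0.07 and H3f3b at 0.31 did not pass and H2afj was at -2.01. The 3 histone genes with at most 10% shared had a median of -0.86.

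At a mean of at least 10 RPKM of mRNA, the 10 highest loads ran from 3.01 to 3.73 and the 10 lowest from -4.33 to -3.38. Scd3 (chr19:44203269-44244016), a desaturase with 40.6% of its 28-mers shared with its relatives, was first, with 329 and 281 RPKM of mRNA against 3258 and 3394 of RPF (load 3.73 ± 0.13, SE; adjusted p = 4.1e-05). Pank3, a pantothenate kinase of coenzyme A synthesis, had 92.9 and 40.9 against 748 and 607 RPKM (load 3.71). The others were Gpm6a (3.44), Scd4 (3.42), Upk1b (3.18), LOC100862012 (3.17), Tgoln2 (3.16), Acta1 (3.15), Lrrn4 (3.14) and 1500015O10Rik (3.01). Gpm6a, Upk1b and Lrrn4 are among the mesothelial markers, and Acta1, the skeletal muscle actin, had 27.5 and 27.3 RPKM of mRNA against 194 and 219 of RPF, with 7.95% of its 28-mers shared with other actins.

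At the low end, Egfl7 (-4.33) and Rpl29 (-3.98) were followed by Arap3 (-3.77), Rps2 (-3.76), Rgl2 (-3.61), Ccnl2 (-3.52), Map3k11 (-3.47), Gm8841 (-3.46), Kank3 (-3.43) and Prkrir (-3.38). Arap3 and Rgl2 act on small GTPases, and Map3k11 is a kinase upstream of JNK. Ccnl2, a cyclin of splicing, had 208 and 192 RPKM of mRNA against 11.1 and 16.0 of RPF, from 20 and 18 reads. These 10 genes held between 9 and 54 RPF reads in both libraries together, so their rank among themselves is loose.

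Loads were set against features of the annotated transcript in 8245 genes with a matched coding length, as descriptions across genes that share the 4 libraries. Coding G+C content had the strongest relation, with Spearman rho = -0.309: the 998 genes up to 45% G+C had a median load of 0.30, and the 677 above 60% one of -0.72, of which 56.7% were below and 11.5% above. Coding length had rho = -0.188, from a median of 0.35 in 742 genes up to 500 bases to -0.23 in 651 genes over 4000 bases. The floor of 4 reads stands at a higher RPKM in a short coding sequence, so low loads of short genes could be listed less often. The part of this floor in the relation was not tested. AUG triplets in the leader had rho = -0.150, with medians of 0.13 in 4125 genes without any, -0.05 with 1, -0.23 with 2 and -0.26 in 1210 genes with 3 or more. The mRNA level (rho = -0.088), leader length (-0.045) and the share of 28-mers found elsewhere (0.023) were weakly related by rank, and the length of the 3′ UTR had rho = 0.106. By mRNA level the medians did not run 1 way: 0.41 up to 10 RPKM, -0.12 at 10 to 30, -0.13 at 30 to 100, 0.16 at 100 to 300 and 0.23 over 300. Of genes up to 10 RPKM only 33.1% could be listed at -1, and mRNA is also the divisor of the load. The part of either was not tested. For the start codon, 476 genes with a G after it but no purine 3 bases before it had a median of -0.28, and 473 genes with neither one of -0.12, against 0.01 with both.

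**Figure D5:**
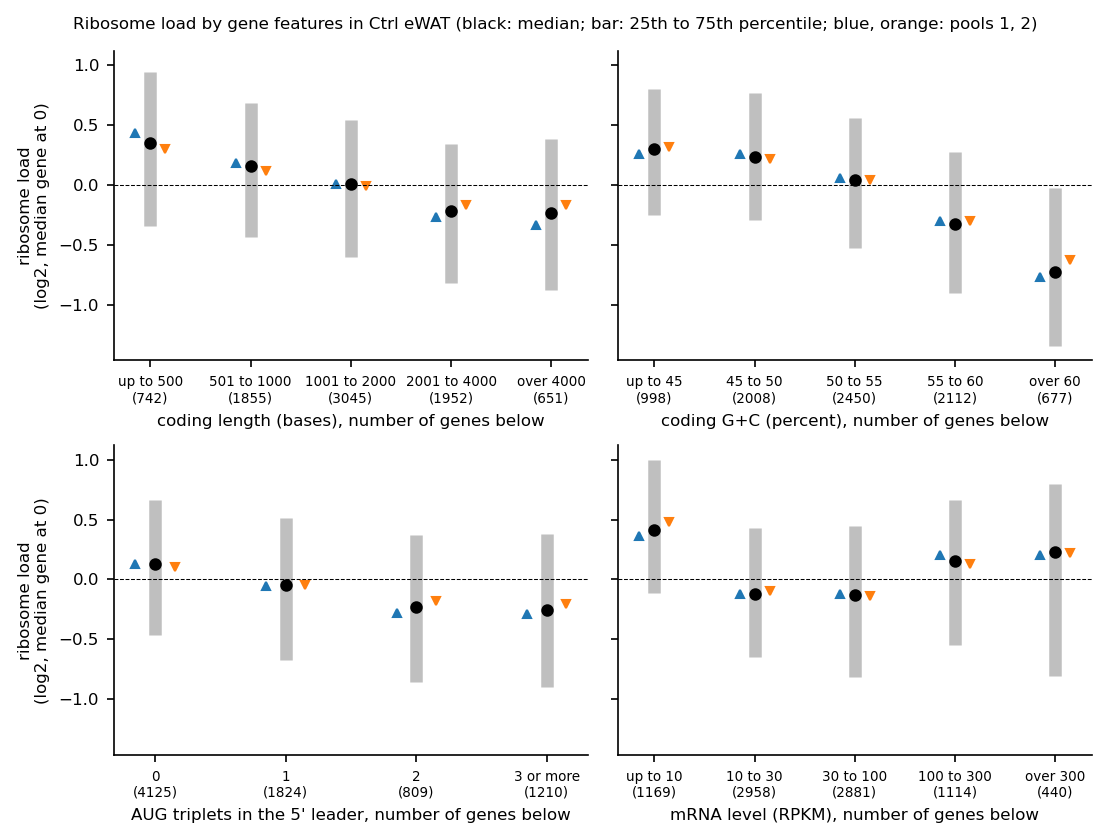
Ribosome load (log2, median gene at 0) by bins of coding length (bases), coding G+C content (percent), AUG triplets in the 5′ leader and mRNA level (RPKM), with the number of genes under each bin; black points are medians, bars the 25th to 75th percentile and triangles the medians in pools 1 and 2. The median goes from 0.30 to -0.72 across the G+C bins and from 0.13 to -0.26 across the AUG bins.

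The HuR-FKO libraries, which the Ctrl loads did not use, gave nearly the same order of genes. Loads of the genotypes correlated across 8562 genes at r = 0.924 and rho = 0.913. Of the 2268 genes above in Ctrl, 2240 were over 0 in HuR-FKO, and of the 2267 below, 2218 were under 0. List medians in Ctrl and HuR-FKO were -1.56 and -1.31 for ribosomal proteins, 1.88 and 1.72 for mesothelial, -1.08 and -1.21 for endothelial and 0.78 and 0.91 for adipocyte markers, -0.95 and -0.77 for adipocyte transcription factors and 0.87 and 1.10 for ATP synthase. Adrb3 was at -2.82 and -2.67, Egfl7 at -4.33 and -3.48 and Scd3 at 3.73 and 3.82. The interaction of genotype and assay passed the threshold for 1 gene of 8562 (0.0117%), the kinase Stk38.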

How the data were processed

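The unit of the library values that the authors deposited is not named in the labels. They were taken as RPKM that the authors computed from reads within coding sequences, since whole reads came back at the coding length. The submitters' processing notes name cutadapt 1.8.3, TopHat2 2.0.9 and Bowtie 1.0.0. Which genome build and counting program served for these libraries is not given in the sources used here. For its RNA-seq in FPKM, with another TopHat version and number of libraries, the study's methods name mm10 and Cufflinks. Columns of the authors' group means and ratios were not used. The table lists 8562 genes with 1.001 RPKM or more in every library, and 18 of 19 symbols that a spreadsheet had altered were restored from their RefSeq IDs. Whole reads were recovered in all 8 libraries for 98.4% of the 8245 genes (96.3% of those listed) with a GENCODE M21 coding length, within 0.001 read. Reads amplified by PCR are not independent molecules, so 95% intervals from reads hold for counting error alone.

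Values were analysed as log2(RPKM + 1), which understates ratios of low genes. The RPF libraries of pools 1 and 2 were moved so that the median gene lay at 0 (their medians were -0.26 and -0.30 on the log2 scale before this). The Ctrl libraries were fitted with limma 3.58.1 in R 4.3.3 (lmFit, eBayes with trend), coefficient RPF minus mRNA, two-sided, adjusted by Benjamini-Hochberg over all genes at a threshold of 0.05, with a filter at a mean of 1 RPKM that removed none. The fit was also run on simulated reads, in which few genes had a load and the dispersion was fixed. These settings are unlike the data, so that run does not check the calls given here. Genotypes were compared by an interaction term over 8 libraries. Lists have no test: counts and medians are given beside those of all genes.

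Same-numbered mRNA and RPF libraries came from the same pool of animals per the labels, so the numbers pair them. Their deviations from the group means correlated at 0.045 in Ctrl and 0.055 in HuR-FKO. Pools are the replicates. The main fit did not pair libraries by pool, so its p-values rest on the spread between the 2 libraries of each assay, shared across genes.

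The named genes are the 10 highest and 10 lowest loads past the threshold at a mean mRNA of at least 10 RPKM, the highest, lowest and 2 most abundant members of each list described, and fixed genes of the study, of fat and of the translation machinery; marker genes of each cell type were fixed as well. Of the members of lists, 2 are not reported here. Further members of a list given with a value were chosen after values were seen. The members, lists and tests were chosen with earlier results of these data known. Alternatives were another pseudocount, filters, scaling, the replicate block, voom on recovered reads, removal of the trend with coding length and G+C content (splines with 4 degrees of freedom) and leaving out each pool. A test against a 2-fold limit and a restriction to genes with at most 10% of coding 28-mers shared were added after seeing the data.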

Additional observations from a re-analysis of the deposited data

Results flagged for a closer look

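The ribosome load of 1 gene differed between the genotypes by the interaction test. Stk38, a serine/threonine kinase of the NDR family, had 56.0 and 53.4 RPKM of mRNA and 58.3 and 39.6 of RPF in the Ctrl pools, a load of 0.10. In HuR-FKO it had 283 and 276 RPKM of mRNA and 28.9 and 32.3 of RPF, a load of -2.81. The difference, HuR-FKO minus Ctrl, was -2.91 ± 0.25 (SE, limma over 8 libraries; adjusted p = 0.0057). mRNA values did not overlap between genotypes, and RPF values did not either. Exact permutation of 2 against 2 libraries gives such a split a p of 0.333, and its share over all genes was not counted. The RPF reads behind this numbered 94 and 40 in the Ctrl pools, 53 and 24 in the HuR-FKO pools. Groups of 2 libraries are too small for a check of single libraries that stand apart.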

How the results depend on the processing

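With 2268 genes above and 2267 below, the counts were 1391 and 1398 over the genes with at least 20 RPF reads, 231 and 342 when tested against a 2-fold limit, and 1513 to 1519 and 1429 to 1528 without a pool, with the spread pooled over both genotypes; 61.1% of the calls were kept without pool 1 and 63.5% without pool 2. With no shift to the median gene 1493 were above and 3215 below. With the replicate block, pairing libraries by pool, they were 2409 and 2419, and 98.3% of the calls were kept. No call of a named gene was lost with the block, and C1qa, Cidec, Ctgf, Eci2, Insig1 and Zfp207 were gained (adjusted p = 0.0073 to 0.048, limma). The pseudocount, both filters on RPKM, voom, the shared fit and the fit without trend reversed no called gene among those named, nor did leaving out either pool.

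Medians of lists moved as follows. With no shift they were -1.84 for ribosomal proteins, -0.12 for initiation factors, 0.50 for adipocyte, 1.60 for mesothelial and -1.36 for endothelial markers, and -1.23 for adipocyte transcription factors. At 20 or more RPF reads they were -1.78, -0.0436, 0.55 and 2.16 for the first 4 of these, -0.66 for the transcription factors, -0.12 for lipolysis and 0.0843 for histones. After removal of the trend with coding length and G+C content they were -1.76 for ribosomal proteins, -0.15 for initiation factors, 0.63 for adipocyte markers and -0.42 for adipocyte transcription factors. Quantile normalization gave -1.94 for ribosomal proteins, -0.17 for adipocyte markers, -0.0205 for fatty acid synthesis, -0.0592 for lipolysis, 0.0546 for fatty acid uptake, 0.0797 for adipokines and 0.0187 for complex I. Without a pool, mesothelial markers were at 2.00 to 2.14 and adipocyte transcription factors at -0.82 to -0.61; smooth muscle markers were at -0.26 without pool 2. With at most 10% of 28-mers shared, mesothelial markers were at 2.17 and histones at -0.83. Over genes with 20 reads the rho was -0.015 for leader length, -0.118 for leader AUG triplets and -0.013 for shared 28-mers.

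Named genes whose load changed sign under quantile normalization were Adipoq (-0.54), Aldoa (-0.053), Apoe (-0.995), Cfd (-0.18), Fabp4 (-0.051), Gsn (-0.85), Plin1 (-0.47), Scd1 (-0.051) and Sparc (-0.049), all abundant. With the trend removed, Col4a1 (0.54), Ltbp3 (0.18) and Rpl38 (-0.027) did. The cause was not tested. Depth limits the low loads: 1830 genes had at most 10 reads in a Ctrl RPF library.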
